A study of Mus musculus with 12 samples.

Results

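The 10 genes described here encode parts of MHC class I molecules, machinery that supplies and loads their peptides, and a transactivator of class I genes. They are H2-K1, H2-D1, B2m, Tap1, Tap2, Tapbp, Calr, Pdia3, Erap1 and Nlrc5. They were chosen by symbol, as the rows of the deposited count table whose Ensembl identifier carries one of these names, and make up 10 of its 57010 genes. They were measured in large peritoneal macrophages, a resident population of the peritoneal cavity, which were sorted as F4/80 high and MHC class II low from female mice. The study crossed genotype with tumour challenge, to learn which transcripts change with phagocytosis when the scavenger receptor Tim4 is present or absent. Each of the 4 groups, wild type (WT) or Tim4 knockout (Tim4KO) and naive or challenged with ID8 cells, has 3 libraries, which are named by group and number (WT ID8 3). Naive mice received no injection, and their age is not given in the sources used here. Challenged mice were injected intraperitoneally at 8 weeks of age with ID8ZGO, a mouse ovarian tumour line (ID8) that expresses the fluorescent protein ZsGreen and ovalbumin, and were sampled 24 hours later. From these mice only ZsGreen-positive macrophages were sorted, so challenge and uptake of tumour material were compared together and cannot be told apart. Neither the strain, the construct behind the Tim4 deletion nor whether animals were pooled is given in the sources used here, so p-values measure the spread between these libraries, which may be partly technical.

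MHC class I molecules consist of a heavy chain, here chiefly H2-K and H2-D, and the light chain beta-2-microglobulin (B2m), and they show peptides at the cell surface to CD8 T cells. Peptides cut in the cytosol by the proteasome are carried into the endoplasmic reticulum by the transporter TAP (Tap1 and Tap2), trimmed there by the aminopeptidase Erap1, and loaded by a complex of tapasin (Tapbp), calreticulin (Calr) and the oxidoreductase Pdia3. Nlrc5 is a transactivator of class I genes that acts at their promoters without binding DNA itself. Macrophages and dendritic cells can also load peptides from engulfed material onto class I, which is called cross-presentation.

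Library totals ran from 7358559 counts (Tim4KO naive 2) to 23170244 counts (WT ID8 3), and levels are given as normalized CPM, counts relative to library size after scaling with edgeR's TMM factors. The floor of 3 counts was 0.137 to 0.399 normalized CPM. The lowest count of any of the 10 genes in a library was 182 (Nlrc5, Tim4KO naive 2). Timd4, the deleted gene, stood at 882 to 1489 normalized CPM in WT libraries, at 7.21 to 7.71 in naive Tim4KO and at 1.38 to 1.92 in challenged Tim4KO. Adgre1 (F4/80), Itgam, Icam2 and Gata6, defining genes of these macrophages, were detected in every library. WT ID8 3 stood apart from its group: its 2 replicate pairs had the highest chi-square per degree of freedom of the 12 within-group pairs, 46.5 and 78.6, against 5.04 to 21.6 in the others. This measure is taken on raw counts and grows with depth, and WT ID8 3 is the deepest library. The part of depth in these values was not tested. Its background reads in olfactory and vomeronasal receptor genes, 6.25 normalized CPM, were also the lowest of the 12 libraries. The counts of calls and the WT challenge values of the 10 genes are also given without WT ID8 3.

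The promoter sequences are shown first, because they hold the elements for which class I genes are known and on which the members differ. RefSeq windows of the 250 bases before the start site (build GRCm38.p6) were found for 8 of the 10 genes, not for Tap2 or Nlrc5. H2-K1 has 2 RefSeq starts, and its positions here are counted from the upstream start, while the window of the other start holds the same motifs and 2 CCAAT boxes. Motifs were searched on both strands: the NF-kB palindrome of enhancer A (GGGGA, then T, then TCCCC), a core of the interferon-stimulated response element (GAANNGAAA), a core of the X2 box (TGACGC), the CCAAT box, called Y box in class I promoters, and the ER stress element (CCAAT, any 9 bases, CCACG), which contains a CCAAT box. The stretch of H2-K1 runs from position -111 to -12, counted from the start site (chr17:34000359-34000458, minus strand), and that of H2-D1 from -171 to -142 (chr17:35262923-35262952, plus strand). The H2-D1 stretch was kept to 30 bases because the longest H2-D1 transcript in GENCODE starts further upstream. The Calr stretch starts at -200 and is 100 bases long (chr8:84847032-84847131, minus strand). All are written 5′ to 3′ on the gene's strand. Capitals mark, in order, the palindrome, the response element (on the minus strand), the X2 core and the Y box (minus strand) in H2-K1, the first and second of these in H2-D1, and the ER stress element (minus strand) in Calr.
H2-K1: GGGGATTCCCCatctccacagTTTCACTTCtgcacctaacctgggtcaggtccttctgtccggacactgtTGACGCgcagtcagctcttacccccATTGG
H2-D1: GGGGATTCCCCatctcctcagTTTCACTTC
Calr: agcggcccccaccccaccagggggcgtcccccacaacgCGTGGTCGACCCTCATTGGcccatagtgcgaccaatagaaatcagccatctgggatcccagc

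H2-K1 and H2-D1 share this layout almost base for base: 29 of the 30 bases from the palindrome to the response element were identical, and 89 of the 100 bases from the palindrome to the Y box. The palindrome was in 0.0304% of 32851 windows of this length and the response element core in 6.31%. The X2 core was in 6.12% of windows, among them those of H2-K1, H2-D1 and Pdia3. The ER stress element was in 0.113% of windows and, of the 8 members with a window, in Calr only. The CCAAT box, present in 33.8% of windows, was in all 8 but Erap1, whose window held none of the 5 motifs. In GENCODE vM21 the Erap1, Tapbp and H2-D1 windows lie within the gene, downstream of its first annotated base, and the Pdia3 window does so in part. For these genes a match or its absence applies to the RefSeq start only. A match is only a run of letters, and no binding was measured.

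**Figure D1:**
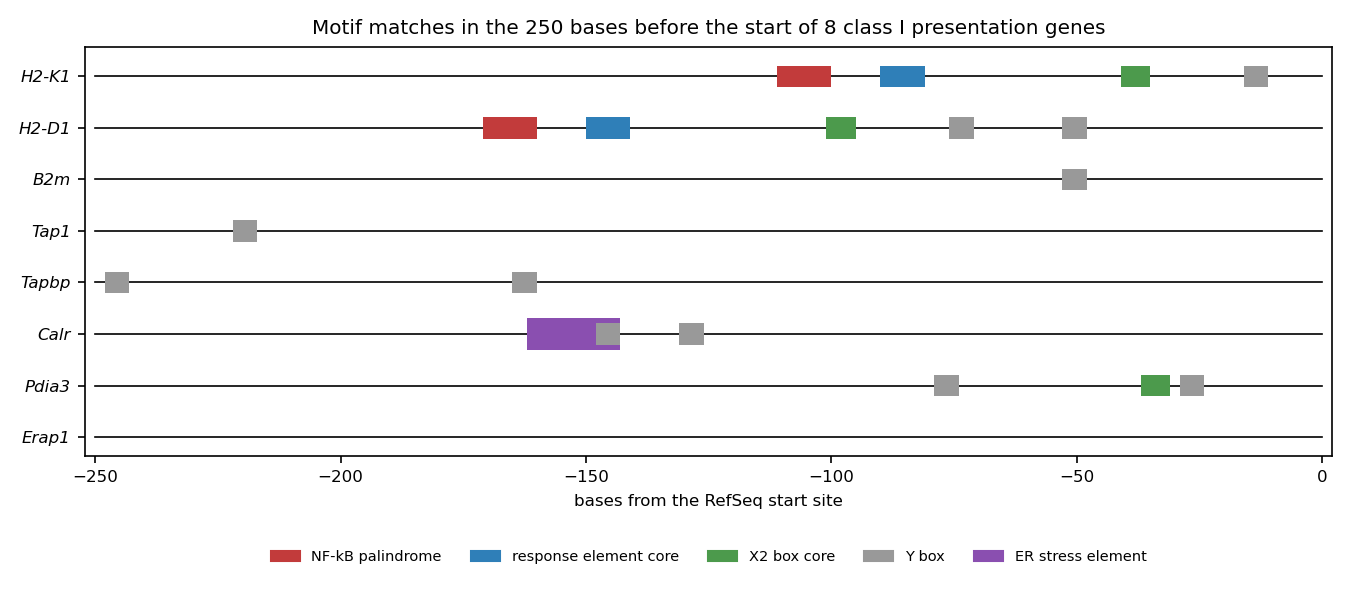
Position of each motif match (coloured boxes) in the 250 bases before the RefSeq start site of 8 class I presentation genes (for H2-K1, the upstream of 2 starts); the horizontal axis is distance from the start in bases. H2-K1 and H2-D1 carry the same 4 motifs in the same order, further from the start in H2-D1, and the ER stress element lies at -162 to -144 in Calr.

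The levels of the 10 genes spanned the range from abundant to scarce transcripts, and the order is given per kilobase of exonic length so that genes can be compared. In naive WT cells B2m was highest at 3231 ± 378 normalized CPM per kb (mean ± SD, n = 3), followed by H2-D1 at 1881 ± 120.2. H2-K1 (445 ± 48.6) and Pdia3 (422 ± 29.6) came next and did not differ beyond their spread. Below them stood Calr at 169 ± 14.1 and Tapbp at 107 ± 0.692 normalized CPM per kb. Tap2 (10.9 ± 0.385), Erap1 (9.59 ± 0.409) and Tap1 (7.78 ± 2.18) formed a low tier, and Nlrc5 was lowest at 2.41 ± 0.66. In challenged WT cells the order of neighbours changed in 2 places: Pdia3, at 671 ± 92.5, stood above H2-K1, at 459 ± 89.1, and the means of Erap1, 19.3 ± 3.08, and Tap1, 16.0 ± 3.59, stood above that of Tap2, 11.8 ± 1.49, with which Tap1 overlapped. Calr reached 393 ± 74.2 normalized CPM per kb in challenged WT, within the spread of H2-K1. In naive Tim4KO cells the order was the same down to Pdia3 (353 ± 55.3), Calr (127 ± 21.4) and Tapbp (125 ± 19.5) did not differ beyond their spread, and neither did Tap2 (11.7 ± 1.64), Tap1 (11.2 ± 6.40) and Erap1 (9.56 ± 1.17). In challenged Tim4KO cells B2m (3460.0 ± 339.9) and H2-D1 (1680.4 ± 136) led again, followed by Pdia3 (619 ± 20.5), H2-K1 (513 ± 48.6), Calr (353 ± 24.2) and Tapbp (115 ± 4.48), each above the next beyond its spread, and Nlrc5 (3.78 ± 0.159) was again lowest.

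**Figure D2:**
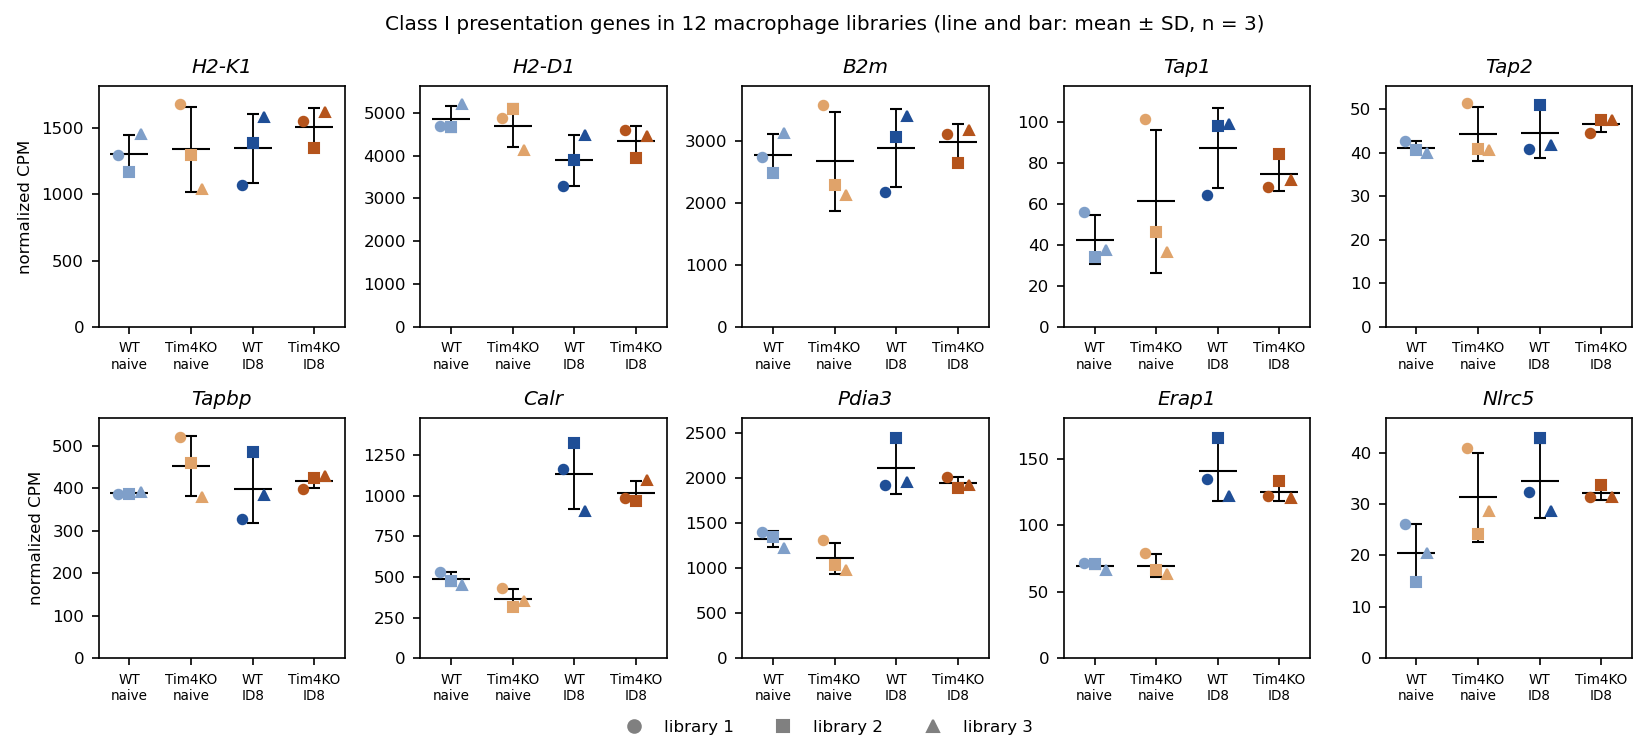
Normalized CPM of each of the 10 genes in the 12 libraries, by group; points are libraries (shape gives the replicate number), the horizontal line is the mean and the bar the SD (n = 3), and each vertical axis starts at 0. Calr, Pdia3 and Erap1 are higher in all ID8 libraries than in all naive ones, while H2-K1 and B2m overlap between all groups.

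After tumour challenge the chaperones and the trimming enzyme rose, while the class I molecule itself and most of its transport and bridging partners did not pass the test. In WT cells 5 of the 10 genes were called higher and 0 lower (edgeR quasi-likelihood test, adjusted p under 0.05 over 15943 genes): Calr, Erap1, Pdia3, Nlrc5 and Tap1. In this comparison 31.8% of all tested genes were called, 19.5% higher and 12.3% lower. In Tim4KO cells 3 of the 10 were called higher and 0 lower, namely Calr, Pdia3 and Erap1, where 16.6% of all tested genes were called, 11.5% higher and 5.06% lower. Libraries of the groups did not overlap for 5 of the 10 upwards and 1 downwards in WT (23.3% and 21.0% of all tested genes), and for 3 upwards in Tim4KO (23.7%). The median log2 fold change of the 10 genes was 0.39 in WT and 0.17 in Tim4KO, against -0.037 and -0.054 over all tested genes. Both challenge comparisons were shifted downwards by upper-quartile scaling, which put the median of all genes at -0.28 in WT and -0.17 in Tim4KO. It also turned the share of calls that were higher from 61.3% to 33.9% in WT and from 69.5% to 48.7% in Tim4KO. Without WT ID8 3, 4 of the 10 were called in WT, Tap1 being lost. The 31.8% of all tested genes called in WT belongs to the fit of all 12 libraries. The share for this refit is not given here. Calr, Pdia3 and Erap1 were called higher in both genotypes under each of the 9 other settings and with each of the 12 libraries left out in turn.

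Between genotypes none of the 10 genes passed the threshold, in naive cells or after challenge. In naive cells edgeR called 0 of the 10 and 0.0439% of all tested genes. There 2 of the 10 and 999 of the 15943 tested genes had an unadjusted p under 0.05. In ID8 cells edgeR called 0 of the 10 and 0.0565% of all tested genes. An unadjusted p under 0.05 was found there for 0 of the 10 and for 1935 of all tested genes. For the interaction, the Tim4KO challenge response minus the WT response, edgeR called 0 of the 10 and 0.00% of all tested genes, with 1 member and 1186 of all genes at an unadjusted p under 0.05. DESeq2 and limma voom also called 0 of the 10 in these 3 comparisons. Without WT ID8 3, edgeR called 997 of all tested genes between genotypes in ID8 cells and 368 for the interaction, and still 0 of the 10 genes. In ID8 cells the fitted log2 differences ran from -0.23 for Tap1 (95% interval -0.99 to 0.53) to 0.16 for H2-K1 (-0.22 to 0.54), with 0.16 for H2-D1 (-0.15 to 0.46). Those of the other genes with a role in loading were -0.15 for Calr (-0.48 to 0.18), -0.12 for Pdia3 (-0.41 to 0.18) and 0.065 for Tapbp (-0.25 to 0.38), and that of Erap1 was -0.17 (-0.45 to 0.12). Leaving WT ID8 3 out, they ran from -0.29 for Calr to 0.29 for H2-K1, with 0.28 for H2-D1, 0.18 for B2m, -0.26 for Erap1, -0.23 for Nlrc5 and -0.13 for Tap1, and the smallest edgeR adjusted p of the 10 was 0.339. The intervals of Tap1 are wider than those of the other genes, so a larger difference could go undetected there. The challenge comparisons and the genotype comparisons share libraries, so their values are given side by side below and not correlated.

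**Figure D3:**
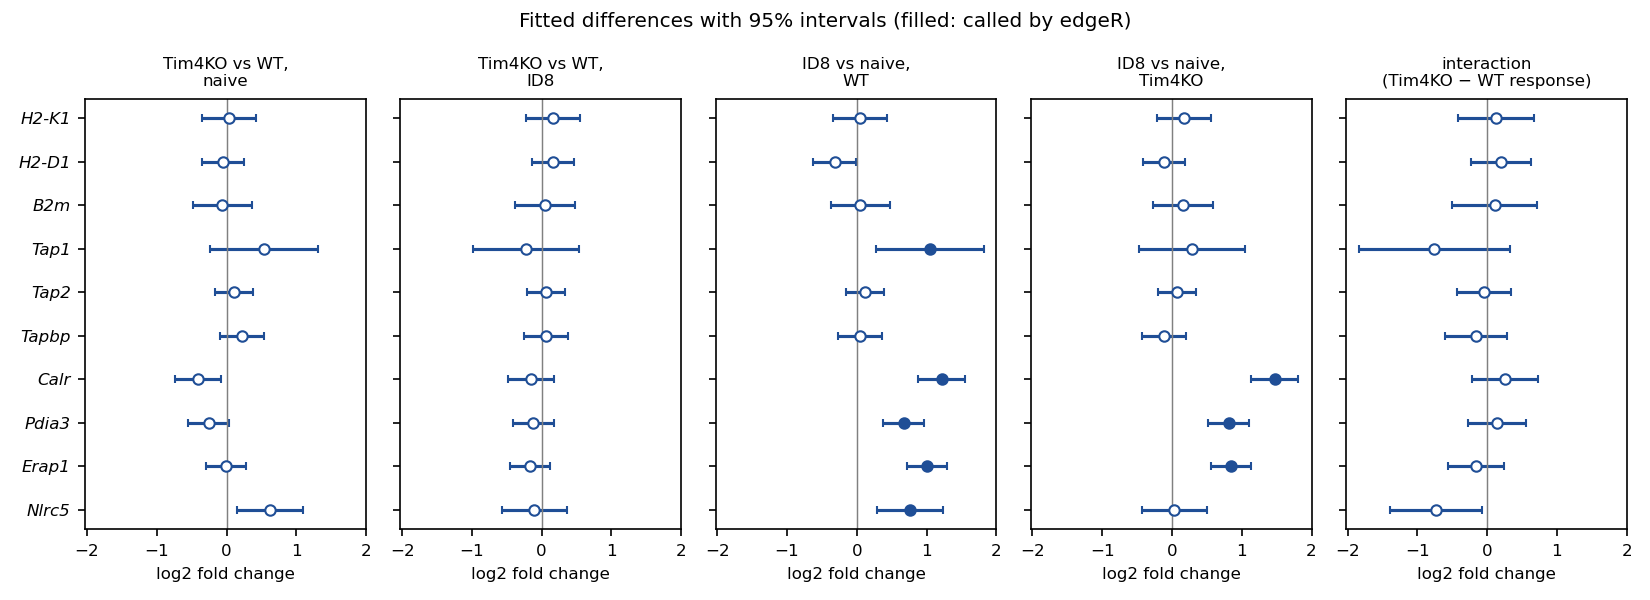
Fitted log2 fold change of each gene with its 95% interval (bars) in the 5 comparisons, 1 panel each; filled points are called by edgeR and open points are not, and the vertical line marks 0. Called genes appear in the challenge panels only, 5 in WT and 3 in Tim4KO. Every interval of the genotype panels other than those of Calr and Nlrc5 in naive cells includes 0. In the interaction panel only that of Nlrc5 (-1.39 to -0.068) excludes 0.

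Calr, the lectin chaperone that holds newly made heavy chains, had the largest fitted response of the 10 in both genotypes, although in WT Tap1 exceeded it without WT naive 1 (1.30 against 1.29 on the log2 scale) or without WT ID8 1 (1.29 against 1.26). Its normalized CPM was 533, 476 and 454 in naive WT and 435, 315 and 351 in naive Tim4KO. After challenge it was 1165, 1326 and 903 in challenged WT and 987, 969 and 1098 in challenged Tim4KO. Every ID8 library lay above every naive library. The rise was 2.32-fold in WT (log2 1.21, SE 0.16, edgeR adjusted p = 8.21e-05) and 2.77-fold in Tim4KO (log2 1.47, SE 0.16, edgeR adjusted p = 3.80e-05). Without WT ID8 3, the lowest challenged WT library for this gene, the WT rise was 1.38 on the log2 scale. The responses of the genotypes differed by 0.26 (95% interval -0.21 to 0.72, edgeR adjusted p = 0.76), and by 0.11 without WT ID8 3. All 3 naive Tim4KO libraries lay below the 3 naive WT ones, as did 6.84% of all tested genes. That difference, -0.41 on the log2 scale (SE 0.16), had an unadjusted p of 0.0192 and an edgeR adjusted p of 0.722.

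Pdia3, which forms and reshuffles disulphide bonds in the loading complex, followed the same order at a smaller size. Its normalized CPM was 1402, 1347 and 1220.5 in naive WT, 1306, 1033 and 983 in naive Tim4KO, 1926, 2443 and 1954 in challenged WT and 2015, 1890.3 and 1923 in challenged Tim4KO. The ID8 libraries did not overlap with the naive ones. The rise was 1.59-fold in WT (log2 0.67, SE 0.14, edgeR adjusted p = 0.00249) and 1.75-fold in Tim4KO (log2 0.81, SE 0.14, edgeR adjusted p = 0.00138). The WT value without WT ID8 3 was 0.75 on the log2 scale. Under upper-quartile scaling it was 0.42, the smallest of the settings tried and still called.

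Tapbp (tapasin), which bridges the heavy chain to TAP and to Pdia3, did not share this pattern. Its normalized CPM was 387, 385 and 390.1 in naive WT, 521, 459 and 379 in naive Tim4KO, 327, 486 and 383 in challenged WT and 399, 423 and 429 in challenged Tim4KO. The naive and challenged libraries overlapped within each genotype, while the naive WT libraries all lay below the challenged Tim4KO ones. The challenge differences were 0.042 in WT (95% interval -0.27 to 0.36) and -0.12 in Tim4KO (-0.43 to 0.20) on the log2 scale. The WT sign turned under 5 of the 9 other settings and with 1 of the 12 libraries left out. The Tim4KO sign turned under 0 of the 9 other settings and with 1 of the 12 libraries left out (0.012). The WT value without WT ID8 3 was 0.10. Exons of other genes cover 29.0% of the exonic length of Tapbp in GENCODE vM21 (Zbtb22 on the same strand, Gm19412 on the other), and the handling of overlaps and strand is not given in the sources used here.

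Erap1, the aminopeptidase that shortens peptides in the endoplasmic reticulum, rose in both genotypes. Its normalized CPM was 71.7, 71.3 and 66.4 in naive WT and 79.3, 66.2 and 63.4 in naive Tim4KO. It was 135, 166 and 122 in challenged WT and 122, 133 and 121 in challenged Tim4KO, all above every naive library. The rise was 2.02-fold in WT (log2 1.01, SE 0.13, edgeR adjusted p = 9.73e-05) and 1.80-fold in Tim4KO (log2 0.85, SE 0.13, edgeR adjusted p = 7.66e-04). With WT ID8 3 left out, the WT rise was 1.13 on the log2 scale. Exons of Cast on the opposite strand cover 11.5% of the exonic length of Erap1.

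The chains of the TAP transporter differed in their values. Tap2 had a normalized CPM of 42.8, 40.6 and 40.0 in naive WT, 51.5, 40.9 and 40.6 in naive Tim4KO, 40.7, 51.0 and 41.8 in challenged WT and 44.5, 47.5 and 47.5 in challenged Tim4KO. Its challenge differences were 0.11 in WT (95% interval -0.16 to 0.39) and 0.069 in Tim4KO (-0.20 to 0.34), and the WT value was 0.19 without WT ID8 3. Tap1 had a normalized CPM of 56.2, 34.1 and 37.5 in naive WT and 101, 46.2 and 36.4 in naive Tim4KO. After challenge Tap1 was at 64.7, 98.3 and 99.2 in challenged WT and 68.4, 84.4 and 71.9 in challenged Tim4KO. All challenged WT libraries exceeded all naive WT ones, whereas Tim4KO naive 1 exceeded every challenged Tim4KO library. Tap1 rose 2.06-fold in WT (log2 1.04, SE 0.35, edgeR adjusted p = 0.0431). This call was lost (edgeR adjusted p 0.0544 to 0.137) without WT naive 2 or 3, without WT ID8 2 or 3, or without any of the 3 challenged Tim4KO libraries, and under 4 of the 9 other settings. Among these is the block by replicate number, which gave 1.10 with an edgeR adjusted p of 0.0502. The labels state no pairing of same-numbered libraries. Leaving out WT ID8 3 gave 0.98 on the log2 scale (edgeR adjusted p = 0.137).

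In Tim4KO cells the Tap1 difference was 0.29 on the log2 scale (SE 0.35, edgeR adjusted p = 0.625). Without Tim4KO naive 1 it was 0.88 and called (edgeR adjusted p = 0.0189), so this library decided the call. Within its group, Tim4KO naive 1 had the highest level of each of the 10 genes other than H2-D1. The Tap1 responses of the genotypes differed by -0.76 (95% interval -1.84 to 0.33, edgeR adjusted p = 0.714), and by -0.20 without Tim4KO naive 1. Exons of Psmb9 on the opposite strand cover 3.87% of the exonic length of Tap1, and Gm15821 and Gm20496, also opposite, cover 18.5% of that of Tap2.

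Nlrc5, the transactivator, was the scarcest of the 10. Its normalized CPM was 26.1, 14.9 and 20.4 in naive WT and 41.0, 24.2 and 28.7 in naive Tim4KO. It was 32.3, 42.8 and 28.6 in challenged WT and 31.3, 33.7 and 31.4 in challenged Tim4KO. The challenged WT libraries lay above the naive WT ones, and in Tim4KO the groups overlapped. Nlrc5 rose 1.70-fold in WT (log2 0.76, SE 0.22, edgeR adjusted p = 0.0179). Without WT ID8 3 the rise was 0.92, and the call was lost without WT naive 2 (0.62, edgeR adjusted p = 0.0597) or WT ID8 2 (0.61, edgeR adjusted p = 0.0653) and under 3 of the 9 other settings. In Tim4KO the difference was 0.033 (95% interval -0.43 to 0.50). The difference between the genotypes' responses, -0.73 (SE 0.31), had an unadjusted p of 0.0329 and an edgeR adjusted p of 0.668, and was -0.87 without WT ID8 3 (edgeR adjusted p = 0.133). In naive cells the Tim4KO level was 1.54 times the WT level (unadjusted p = 0.013, edgeR adjusted p = 0.694), with 1 naive WT library above the lowest naive Tim4KO one.

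The heavy chains and B2m, the parts of the class I molecule itself, were abundant in every group. H2-D1 had a normalized CPM of 4685, 4661 and 5209.9 in naive WT, 4886, 5097 and 4128 in naive Tim4KO, 3281, 3891 and 4492 in challenged WT and 4603, 3937 and 4461 in challenged Tim4KO. All 3 challenged WT libraries lay below all 3 naive WT ones, as 21.0% of all tested genes did, and the Tim4KO groups overlapped. The WT difference was -0.32 on the log2 scale (SE 0.14, edgeR adjusted p = 0.0936). It was called lower under 3 of the 9 other settings: -0.57 with upper-quartile scaling (edgeR adjusted p = 0.00484), -0.49 with a mean count of at least 50 (edgeR adjusted p = 0.00965) and -0.37 by DESeq2 (adjusted p = 0.0314). The value without WT ID8 3 was -0.41 (edgeR adjusted p = 0.0574).

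H2-K1 had a normalized CPM of 1296, 1171 and 1456 in naive WT, 1681, 1293 and 1039.7 in naive Tim4KO, 1068, 1390.2 and 1586 in challenged WT and 1554, 1347 and 1622 in challenged Tim4KO. B2m had 2735, 2477 and 3123 in naive WT, 3579, 2293 and 2129 in naive Tim4KO, 2176, 3059.9 and 3395 in challenged WT and 3113, 2639.8 and 3173 in challenged Tim4KO. For both genes all groups overlapped, and the spread within naive Tim4KO and challenged WT was wider than any difference between group means. The challenge differences in WT were 0.044 for H2-K1 (95% interval -0.34 to 0.43) and 0.050 for B2m (-0.38 to 0.48), and both turned negative under several settings, among them without WT ID8 3 (-0.062 and -0.057). Between genotypes in ID8 cells the differences were 0.16 (-0.22 to 0.54) and 0.049 (-0.38 to 0.48). Class I heavy chain genes share stretches of sequence. Of the 50-base windows of H2-D1 transcripts 12.8% also occur in other genes, and of those of H2-K1 9.63%. Reads of such stretches can be split between genes by the counting. Summed over 16 H2-K, H2-D, H2-Q and H2-T genes, the WT challenge difference was -0.18 (SE 0.15, edgeR adjusted p = 0.34) and the Tim4KO one -0.024 (edgeR adjusted p = 0.929).

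Ratios between partner transcripts within a library do not depend on scaling. The 4 ratios below were chosen after the levels had been seen, so they are a description with no test. The count ratio of H2-D1 to H2-K1 was 3.62, 3.98 and 3.58 in naive WT, 2.91, 3.94 and 3.97 in naive Tim4KO, 3.07, 2.80 and 2.83 in challenged WT and 2.96, 2.92 and 2.75 in challenged Tim4KO. All ID8 libraries lay below all naive WT ones, and Tim4KO naive 1 lay among the ID8 values. The ratio of Pdia3 to Tapbp was 3.62, 3.50 and 3.13 in naive WT and 2.51, 2.25 and 2.59 in naive Tim4KO. It was 5.89, 5.03 and 5.10 in challenged WT and 5.05, 4.47 and 4.48 in challenged Tim4KO. The ID8 libraries exceeded all naive ones. The Tim4KO libraries lay below the WT ones in naive cells, and in ID8 cells 1 Tim4KO library lay above the lowest WT one.

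The ratio of Tap1 to Tap2 averaged 1.03 ± 0.251 (SD, n = 3) in naive WT, 1.33 ± 0.564 in naive Tim4KO, 1.96 ± 0.395 in challenged WT and 1.61 ± 0.145 in challenged Tim4KO. The WT groups did not overlap, and Tim4KO naive 1 exceeded every challenged Tim4KO library. The ratio of H2-K1 plus H2-D1 to B2m averaged 2.23 ± 0.115 in naive WT, 2.35 ± 0.481 in naive Tim4KO, 1.84 ± 0.143 in challenged WT and 1.97 ± 0.0437 in challenged Tim4KO. Here Tim4KO naive 1 lay below every challenged Tim4KO library, while the other 2 naive Tim4KO libraries lay above them.

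**Figure D4:**
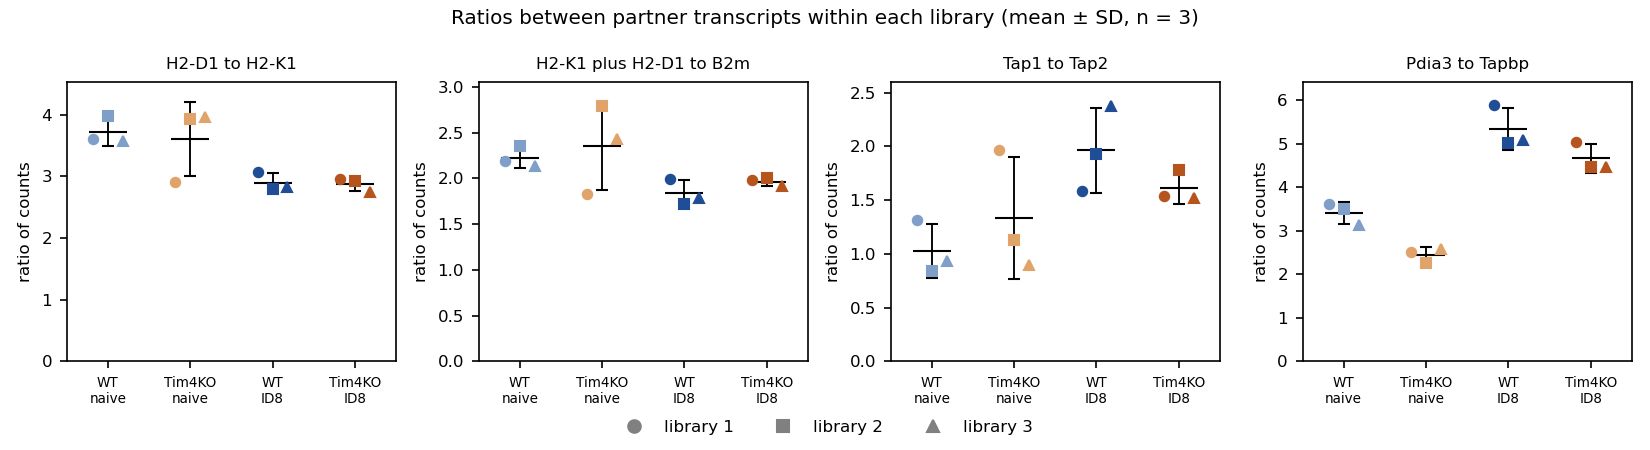
Ratio of counts between partner transcripts in each of the 12 libraries, by group; points are libraries, the line is the mean and the bar the SD (n = 3), and axes start at 0. The Pdia3 to Tapbp ratio runs from 4.47 to 5.89 in ID8 libraries and from 2.25 to 3.62 in naive ones, and the H2-D1 to H2-K1 ratio is lower in ID8 libraries than in 5 of the 6 naive ones.

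Other genes of the pathway were read from 6 lists written from general knowledge, 77 genes of which 70 were tested. None of the 70 was called between genotypes in naive or ID8 cells or for the interaction. An unadjusted p under 0.05 was found for 2, 7 and 4 of them, and for 999, 1935 and 1186 of the 15943 tested genes. In ID8 cells DESeq2 called 1 of the 70 lower and limma voom 0. Without WT ID8 3, edgeR called 4 of the 70, 1 higher and 3 lower. In that refit the calls over all tested genes, given above, rose as well, so the 4 are not read as a trait of these lists. DESeq2 and limma voom called 0 in naive cells and for the interaction. After challenge 29 were called higher and 5 lower in WT, and 18 higher and 4 lower in Tim4KO, to be read against the 19.5% and 12.3% of all tested genes in WT and the 11.5% and 5.06% in Tim4KO. These shares belong to the edgeR fit of all libraries with TMM scaling. List counts under other settings or without a library are given here and below with no matching share. The median log2 fold change of the 70 was 0.38 in WT and 0.19 in Tim4KO.

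The list nearest to Calr and Pdia3 was that of folding and loading factors of the endoplasmic reticulum, with 11 of 12 called higher in WT and 9 of 12 in Tim4KO, and 0 lower in either. Its median log2 fold change was 0.82 in WT and 0.81 in Tim4KO. With upper-quartile scaling 9 and 8 were called higher, and without WT ID8 3 the WT count was again 11. Pdia4, another disulphide isomerase, went from 207 ± 44.7 to 558 ± 135 normalized CPM in WT (log2 1.43, SE 0.18, edgeR adjusted p = 7.68e-05). P4hb and Pdia6, of the same enzyme family, rose by 1.11 and 1.11 in WT and by 1.12 and 1.42 in Tim4KO. The gene of this list not called in WT was Sec61g, a subunit of the translocation channel (0.50, edgeR adjusted p = 0.0549), named after its value was seen.

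Of 5 immunoproteasome genes 1 was called higher in each genotype, Psme2, a subunit of the proteasome activator (log2 1.11 in WT, edgeR adjusted p = 0.0144, and 1.11 in Tim4KO, edgeR adjusted p = 0.024). Psmb10 and Psmb8, catalytic subunits, had values of 0.61 and 0.57 in WT, with edgeR adjusted p-values of 0.0635 and 0.116. The WT count was 2 of 5 without WT ID8 3, and also with the replicate block. Of 8 other peptide-trimming enzymes 4 were called higher in WT and 3 in Tim4KO, and 0 lower, and the WT count was the same without WT ID8 3. Thop1, a cytosolic endopeptidase, went from 7.09 ± 1.67 to 22.4 ± 5.08 normalized CPM in WT (log2 1.67, SE 0.24, edgeR adjusted p = 1.63e-04) and rose by 1.28 in Tim4KO. Lap3, leucine aminopeptidase, rose by 1.05 in WT and 0.71 in Tim4KO. Blmh, bleomycin hydrolase, rose by 0.37 in WT and had a value of 0.30 in Tim4KO (edgeR adjusted p = 0.0663). Nrdc, named after its value was seen, rose by 0.39 and 0.41.

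Of 10 tested class I heavy chains other than the members, 3 were called higher and 1 lower in WT, and 1 higher and 1 lower in Tim4KO. Without WT ID8 3, 11 were tested and the WT counts were 4 and 2. Cd1d1, which presents lipids, fell from 26.9 ± 2.08 to 12.4 ± 2.26 normalized CPM in WT (log2 -1.10, edgeR adjusted p = 6.96e-04) and by 0.87 in Tim4KO (edgeR adjusted p = 0.00585). H2-T22, a nonclassical heavy chain, rose by 0.90 in WT and had a value of 0.43 in Tim4KO (edgeR adjusted p = 0.137). H2-Q6 rose by 1.32 in WT and had a value of 0.39 in Tim4KO, from levels under 10 normalized CPM and with near-identical H2-Q copies, so it is uncertain. The third gene called higher in WT, named after its value was seen, was H2-Q7 (1.45 in WT and 1.36 in Tim4KO), under the same limit.

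Among genes of vesicle traffic tied to cross-presentation, 8 of 17 were called higher in WT and 4 of 17 in Tim4KO, and 0 lower. With upper-quartile scaling the WT count was 1 higher and 1 lower, and the Tim4KO count 3 higher and 1 lower. In WT 8 of 18 were called higher without WT ID8 3. Ifi30, a thiol reductase of lysosomes and phagosomes, rose by 1.01 in WT and 1.14 in Tim4KO, with a challenged WT level of 147 ± 70.4 normalized CPM that varied widely between libraries. Rab27a, a GTPase of vesicle transport, rose by 0.53 in WT and had a value of 0.35 in Tim4KO (edgeR adjusted p = 0.0714). Atg7, an autophagy enzyme, rose by 0.53 in WT and 0.54 in Tim4KO. The other calls in Tim4KO, named after their values were seen, were Rab11a (0.52) and Ncf1 (0.47).

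Regulators of class I transcription were mixed. Of 18 genes, 2 were called higher and 4 lower in WT and 0 higher and 3 lower in Tim4KO, with median log2 fold changes of 0.016 and -0.24. With upper-quartile scaling the WT counts were 0 higher and 7 lower, and without WT ID8 3 they were 2 and 3. Irf2, a factor that binds response elements, fell from 503 ± 34.5 to 319 ± 21.2 normalized CPM in WT (log2 -0.66, edgeR adjusted p = 0.0011) and by 0.58 in Tim4KO. Ifngr1, a chain of the interferon-gamma receptor, fell by 0.69 in WT and by 0.67 in Tim4KO. Nfyc, a subunit of the factor that binds the Y box, rose by 0.50 in WT and had a value of -0.013 in Tim4KO. The other calls, named after their values were seen, were Rfx5 (-0.63) and Ifnar2 (-0.41) lower and Nfyb (0.45) higher in WT, and Nfkb1 (-0.44) lower in Tim4KO.

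**Figure D5:**
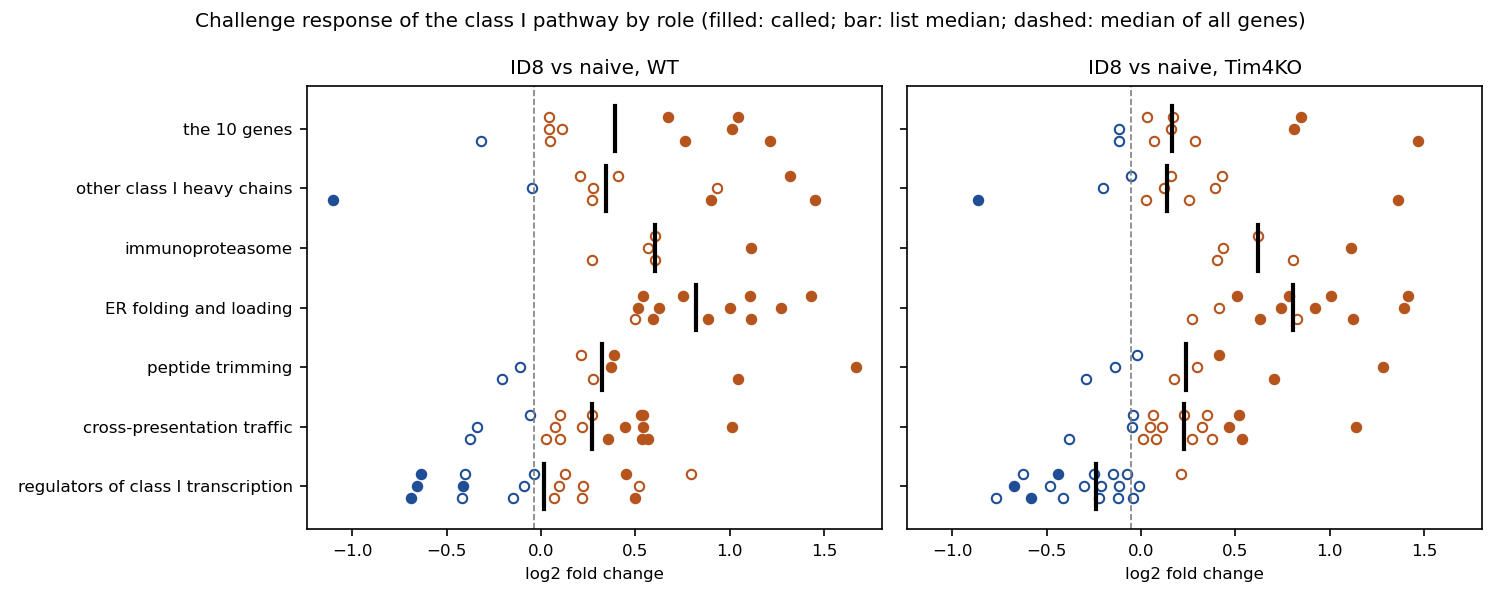
Log2 fold change after challenge of the 10 genes and of the tested genes of the 6 pathway lists, in WT (left) and Tim4KO (right); each point is a gene (vertical offsets only separate points), orange above 0 and blue below, filled where edgeR called it, black bars are list medians and the dashed line is the median of all tested genes. The folding and loading factors have the highest medians of the lists, 0.82 and 0.81.

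The genes whose pattern over the 12 libraries was most like that of 4 of the members were found by the mean absolute difference of centred log2 CPM among 9721 genes, as a description of these libraries. For Calr they were Pdia4 (0.105), Praf2 (0.106), Pdia6 (0.113) and Rexo2 (0.119), where the median over all genes was 0.612. For Tap1 they were Psmb9 (0.149), H2-T22 (0.157), Cdr2 (0.179) and Ube2l6 (0.191), with a median of 0.473. Psmb9 lies beside Tap1 and overlaps it on the opposite strand, and without strand information reads of the overlap cannot be told apart. For Nlrc5 they were Tifab, Ddx31, Tpst2 and Tmem106a (0.136 to 0.153, median 0.351), and for B2m Thap11, Pdlim2, Npc2 and Lsm10 (0.104 to 0.106, median 0.29). The 12 libraries share the challenge split, and a likeness in these values carries no test.

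Summed markers of several other cell types moved with challenge, while those of B cells and of T or NK cells overlapped between naive and ID8 libraries. The part of other cells in the results was not tested. In bulk libraries fewer cells of a type and less RNA per cell cannot be told apart. The 10 epithelial or tumour markers summed to 5.81 to 25.3 normalized CPM in naive and 1.60 to 5.72 in ID8 libraries, with 9, 8, 5 and 8 of 10 above 3 counts in a library of naive WT, naive Tim4KO, challenged WT and challenged Tim4KO. The 7 neutrophil markers summed to 176 to 257 in naive and 71.6 to 112 in ID8 libraries, mostly Csf3r, with Ngp at 0 in all challenged WT libraries. Against that sum, S100a8 stood at 4.40 to 7.38 normalized CPM in naive and 9.13 to 24.8 in ID8 libraries, and Retnlg at 0 to 1.86 and 0.601 to 11.9. The 7 markers of small peritoneal macrophages or dendritic cells summed to 59.7 to 84.8 and 16.7 to 47.5. Of these, Cd209a stood at 24.4 to 39.5 in naive and 3.27 to 6.66 in ID8 libraries, while Ccr2 overlapped (4.66 to 19.8 and 3.18 to 16.7). The 5 mast cell markers summed to 13.2 to 38.8 and 2.19 to 9.45, the 6 B cell markers to 8.34 to 21.8 and 3.44 to 8.52, and the 8 T or NK cell markers to 4.26 to 8.02 and 3.80 to 9.99. The 10 markers of large peritoneal macrophages, all detected in each group, summed to 48846 to 55702 in naive and 20353 to 25332 in ID8 libraries, mostly through Lyz2 (40527 to 47486 against 10729 to 14990). Other genes of that list were higher in all ID8 than in all naive libraries: Adgre1 (2569 to 3789 against 3932 to 6299), Itgam (994 to 1334 against 1705 to 2360.0) and Icam2 (617 to 911 against 941 to 1485). Reads in 1946 olfactory and vomeronasal receptor genes, a measure of background, summed to 267 to 836 normalized CPM in naive and 6.25 to 362 in ID8 libraries.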

How the data were processed

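The values are raw counts of reads per Ensembl gene, 1 column for each of 12 libraries, as deposited by the authors. RNA of sorted cells was made into libraries with a SMART-Seq mRNA low-input kit, per the labels' protocols. The submitters' processing notes name FastQC, STAR 2.5 and the builds mm10 and GRCm39 with no roles. The counting program, annotation, strand and multi-mapping settings are not given in the sources used here. Identifiers were named from GENCODE vM21 (52029 of 57010), which also gave exonic lengths and overlaps.

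edgeR 4.0.16 (R 4.3.3) fitted a quasi-likelihood model with 1 mean per group to all 12 libraries after filterByExpr and TMM scaling, with robust dispersions. Benjamini-Hochberg adjustment ran over 15943 genes and genes were called at an adjusted p under 0.05. The 5 comparisons were challenge within each genotype, genotype within each condition, and their interaction. Confidence intervals are at 95%. Alternatives were DESeq2 1.42.0, limma voom 3.58.1, other scalings and filters, the compared groups only, a block by replicate number, summed heavy chains, and each library left out. Only the main edgeR fit was run on simulated counts, with 200 genes changed in challenged WT, and the alternatives were not. The labels state no pairing of libraries. Deviations from the group mean were correlated between same-numbered libraries over 10229 genes. The r was 0.103, 0.105 and 0.309 between naive and challenged WT, and 0.328, 0.0704 and 0.136 between naive WT and naive Tim4KO. In every pair of groups but naive and challenged WT at least 1 of the 3 correlations was under 0.1. Libraries with different numbers were not compared, so whether the numbers pair libraries was not tested.

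The 10 genes and the lists were chosen with earlier results of these data known. All 10 genes are named. Of each list, the 3 genes with the smallest p in the comparison with the most calls are named, and for B2m, Tap1, Calr and Nlrc5 the 4 genes closest in pattern. Promoters are from RefSeq (GRCm38.p6). No library was left out of the reported fits.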

Additional observations from a re-analysis of the deposited data

How the results depend on the processing

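Calr, Pdia3 and Erap1 kept their direction and their side of the threshold in both challenge comparisons under all 9 other settings and with each of the 12 libraries left out. No alternative called any of the 10 genes between genotypes or for the interaction. The Tap1 call in WT cells was lost with DESeq2 size factors, upper-quartile scaling, a mean count of at least 50 and the replicate block (adjusted p = 0.0502), and the Nlrc5 call with upper-quartile scaling, a mean count of at least 50 and the 2 compared groups only. The replicate block changed no other call of the 10 genes in the WT challenge comparison. Over the 18 same-numbered pairs of all groups r ran from -0.0947 to 0.33, above 0.1 in 6. The block gave 3 calls over all genes between genotypes in naive cells and 14 in ID8 cells, and the cause of this and the changes below was not tested.

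Over all tested genes, naive cells gave 59 genotype calls without a filter on low counts, 52 with DESeq2, 3 with limma voom and 2 with only the 2 groups compared. ID8 cells gave 264 genotype calls without the filter and 266 with DESeq2, and the interaction 73 and 11. WT challenge gave 3102 calls with only the 2 groups compared. Genes near 0 changed sign. With upper-quartile scaling the WT challenge values were -0.21 for H2-K1, -0.20 for B2m, -0.13 for Tap2 and -0.21 for Tapbp. The Tim4KO ones were -0.046 for Tap2 and -0.082 for Nlrc5, that of Tap2 for the interaction 0.089 and that of H2-K1 between naive genotypes -0.025. With a mean count of at least 50 they were -0.13, -0.13, -0.062 and -0.14 in WT, -0.035 and -0.070 in Tim4KO and 0.027 for the Tap2 interaction. In WT, H2-K1, B2m and Tapbp stood at -0.0067, -4.2e-05 and -0.013 with DESeq2 size factors, -0.0067, -6.5e-05 and -0.013 by DESeq2, and -0.054, -0.048 and -0.062 with only the 2 groups. Nlrc5 in Tim4KO stood at -0.016, -0.015 and -0.0017 under the same settings. Without the filter, Erap1 between naive genotypes was 0.0082 and B2m between ID8 genotypes -0.011. With heavy chains summed, the sum stood in for H2-K1 and H2-D1. This sum was -0.014 between naive genotypes, -0.18 in WT challenge and -0.024 in Tim4KO challenge. These are values of the sum and show no change of sign of H2-K1 itself.

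With each library left out in turn, all genes gave 1 to 29 calls between naive genotypes, 1 to 997 between ID8 genotypes, 3362 to 7230 in WT challenge, 1222 to 3595 in Tim4KO challenge and 0 to 368 for the interaction, and WT challenge called 3 to 5 of the 10 genes. Between naive genotypes the values ran over -0.16 to 0.19 for H2-K1, -0.10 to 0.047 for H2-D1, -0.32 to 0.084 for B2m, -0.037 to 0.81 for Tap1, -0.0089 to 0.18 for Tap2 and -0.10 to 0.067 for Erap1. Between ID8 genotypes they ran over -0.030 to 0.29 for H2-K1, -0.16 to 0.18 for B2m, -0.042 to 0.17 for Tap2, -0.11 to 0.22 for Tapbp and -0.23 to 0.074 for Nlrc5. In WT challenge they ran over -0.062 to 0.26 for H2-K1, -0.057 to 0.29 for B2m and -0.092 to 0.24 for Tapbp, and in Tim4KO challenge over -0.22 to 0.012 for Tapbp and -0.10 to 0.29 for Nlrc5. For the interaction they ran over -0.071 to 0.31 for H2-K1, -0.11 to 0.36 for B2m and -0.16 to 0.061 for Tap2. The genotype differences of the H2-D1 to H2-K1 and Tap1 to Tap2 ratios ran over -0.074 to 0.039 and -0.14 to 0.15. Leaving libraries out of the ratios was chosen after seeing the data.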

Other observations

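The ER stress element found in the Calr window was also in 3 of the 10 folding and loading genes with a RefSeq window (Canx, Hspa5 and Pdia6), against 0.113% of all windows. Of the 11 other class I heavy chains with a window, 6 held the core of the interferon-stimulated response element and 8 a CCAAT box, and H2-Q6 alone held the palindrome that H2-K1 and H2-D1 carry. None of the 5 immunoproteasome genes had a window with the response element core. That core was in 6.31% of all windows, the CCAAT box in 33.8% and the palindrome in 0.0304%. A gene was counted if any of its windows matched, whereas the shares are per window. These are matches of letters in reference sequence and carry no test.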
